A study of Mus musculus with 8 samples.

Results

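The mitochondrial carriers are the Slc25a genes, most of which encode transport proteins of the mitochondrial inner membrane. They were taken as every gene whose single symbol in the platform annotation starts with Slc25a and a number, with 1 probe set per gene, the brightest over all arrays. This gave 44 genes among the 18193 genes represented on the arrays. The RNA came from fully grown mouse oocytes at the germinal vesicle stage, before meiosis resumes, pooled by mouse with 20 oocytes each. The groups were 4 females labelled Dicer knockout and 4 labelled wild-type, all of the strain 129/C57BL6, primed with equine chorionic gonadotropin (eCG, a hormone that makes follicles grow), with oocytes freed of cumulus cells by pipetting. Dicer is the enzyme that matures microRNAs and endogenous siRNAs, and the labels give neither the deleted exons, the means of deletion nor the age of the mice. All values are log2 signals of Affymetrix arrays, with 1 array per mouse, and differences are knockout minus wild type. The oocyte RNA was pooled before hybridisation, so fewer cells of a type and less RNA per cell cannot be told apart.

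Carriers move metabolites across the inner membrane, which is otherwise closed to charged molecules. They exchange ADP for ATP, bring in phosphate, link cytosol and matrix through citrate, malate, aspartate and glutamate, and supply the matrix with cofactors such as coenzyme A, folate, NAD and S-adenosylmethionine. Oocytes hold many mitochondria, rely on pyruvate oxidation for ATP and pass their mitochondria to the embryo. Carrier proteins are made in the cytosol and inserted into the inner membrane by the TIM22 complex.

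Array medians lay between 6.35 and 6.43, and pairs of arrays correlated at 0.9915 to 0.9947 within groups and 0.9797 to 0.9865 between them, across probe sets. Both Dicer1 probe sets were higher where the label says knockout, by 1.19 ± 0.0789 (SE, adjusted p = 2.12e-05, limma) and 0.69 ± 0.102 (adjusted p = 0.0017, limma). Without the deleted exons, neither probe set checks the genotype, and knockout below means the label. Of 15 oocyte markers, 5 fell and 0 rose, where 12.8% of all genes fell and 8.18% rose. The differences of those that fell were -0.61 for Figla, -0.37 for Kit, -0.36 for Mos, -0.30 for Dppa3 and -0.24 for Ooep. Counting those that did not pass, 13 of the 15 differences were negative. Zp3, a zona pellucida protein that did not pass, read 14.38 ± 0.0656 in knockout and 14.39 ± 0.0647 in wild type (SD, n = 4 each). Of 21 cumulus and granulosa markers, 10 fell and 0 rose, and their summed linear signal was 7267 to 9221 in knockout against 10828 to 16692 in wild type, with no overlap. Among 19 theca, stromal, endothelial and blood cell markers, 1 rose and 2 fell, with sums of 1977 to 2198 in knockout against 2108 to 2284 in wild type. The one that rose was Cd68, a macrophage marker, with 8.12 ± 0.153 in knockout and 6.96 ± 0.0903 in wild type (SD, n = 4 each), or 2.24-fold (adjusted p = 5.36e-05, limma). The macrophage and myeloid markers Adgre1 and Lyz2 differed by 0.18 and 0.04 and did not pass. Those that fell were the endothelial receptors Tek and Kdr, by 0.78 and 0.54, while the endothelial markers Pecam1 (-0.32) and Cdh5 (-0.06) did not pass. The leukocyte marker Ptprc read at most 4.05 on any array, and no detection calls were used, so no marker can be called absent. The part of these somatic markers in the carrier results was not tested.

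Of the 44 carriers, 3 rose and 5 fell in knockout oocytes at adjusted p under 0.05 (limma, Benjamini-Hochberg adjustment over all 45037 probe sets), together 18.2% of the carriers against 21% of all genes. By direction, 6.82% rose against 8.18% of all genes, and 11.4% fell against 12.8% of all genes. The median difference was 0.04 over the carriers and 0.00267 over all genes. In 12 carriers (27.3%) the 4 knockout values lay on one side of the 4 wild-type values, against 26.2% of all genes. The carriers as a family were thus called about as often as the average gene on the arrays, and the changes lay in single members. When only probe sets above the median brightness were fitted, 4 of 38 carriers rose and 5 fell. Together this was a smaller share than the 30.5% called among 12263 genes, a difference that was not tested. With all probe sets fitted, the 3 that rose were Slc25a26, Slc25a22 and Slc25a1, and the 5 that fell were Slc25a13, Slc25a35, Slc25a53, Slc25a16 and Slc25a32. The split depended on the scaling of the arrays, with 4 higher and 3 lower after quantile normalisation, 1 and 5 after subtracting array medians, and 6 and 2 after cyclic loess. The split over all genes moved in the same direction, with 1488 higher and 2330 lower as deposited, 1606 and 2141 after quantile normalisation, 1285 and 2530 after subtracting array medians, and 1745 and 1864 after cyclic loess.

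**Figure D1:**
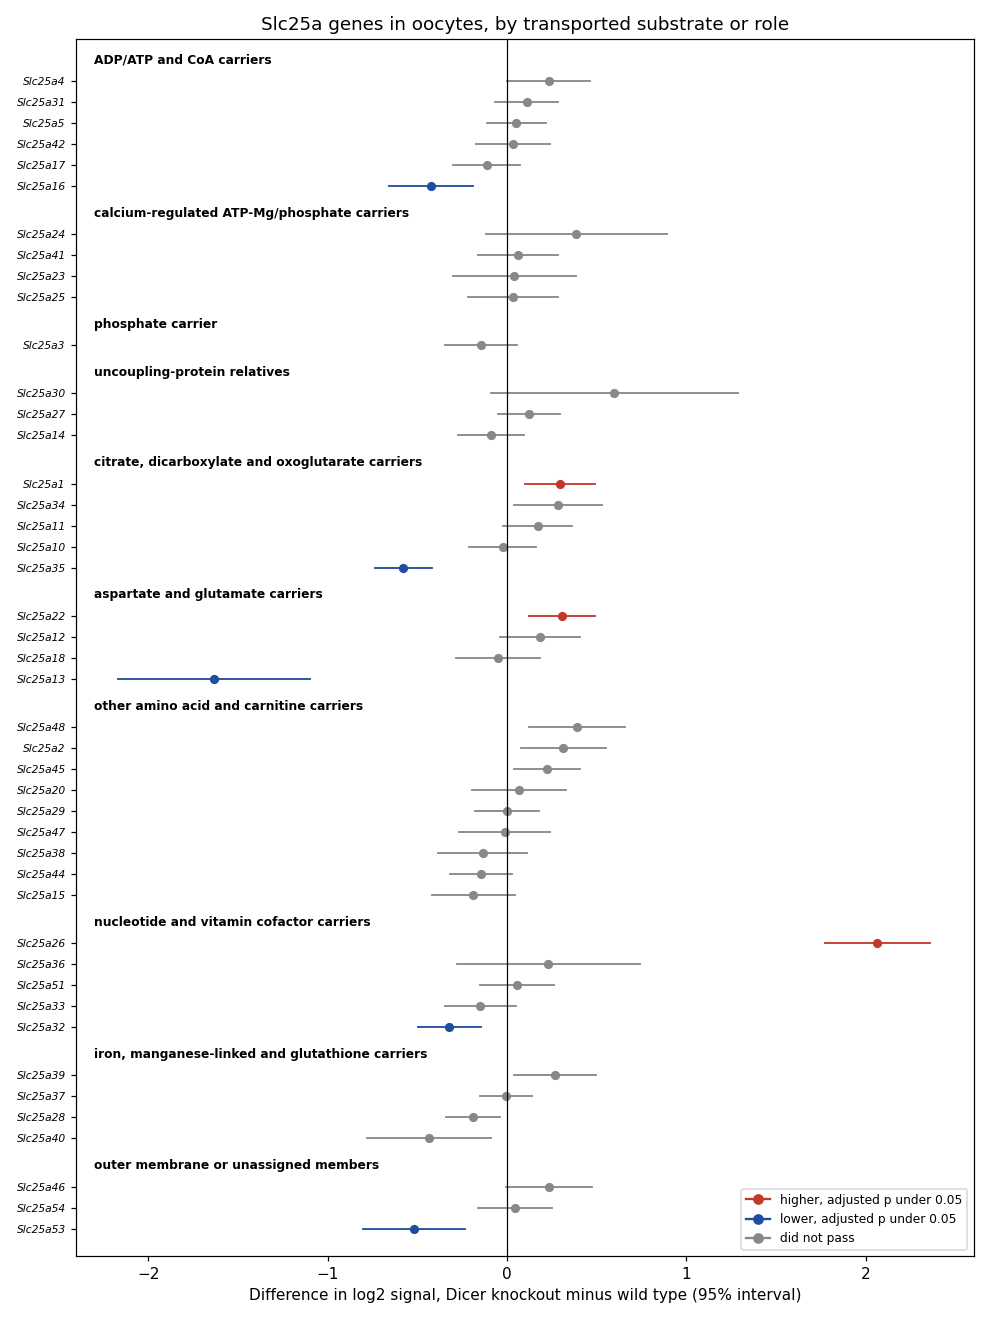
The x axis gives the difference in log2 signal, Dicer knockout minus wild type, with its 95% interval for each of the 44 Slc25a genes, grouped by substrate or role (n = 4 arrays per group). Slc25a26 lies alone at 2.06 and Slc25a13 at -1.63, while 29 of the 36 genes that did not pass have an interval within 0.5 of 0.

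Promoter windows, 250 bases before to 50 after the start, are shown for 3 carriers that passed, to set genes that fell beside one that rose. The RefSeq table (GRCm38.p6) matched 34 of the 44 carriers, and 5 of the 8 that passed. Sequences run 5′ to 3′ on the gene's strand, and capitals mark 3 motifs searched on both strands, the E box CACGTG, the CCAAT box CCAAT and the GC box GGGCGG. Slc25a13 lies on chromosome 6, Slc25a16 on chromosome 10 and Slc25a1 on chromosome 16, and their windows are as follows.
Slc25a13, fell, chr6:6217124-6217423, minus strand: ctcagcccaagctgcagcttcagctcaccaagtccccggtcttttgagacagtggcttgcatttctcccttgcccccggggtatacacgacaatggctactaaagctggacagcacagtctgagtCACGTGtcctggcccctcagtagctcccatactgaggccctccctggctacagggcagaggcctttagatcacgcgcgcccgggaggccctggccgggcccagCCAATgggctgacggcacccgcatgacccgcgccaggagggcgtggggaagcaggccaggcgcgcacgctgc
Slc25a16, fell, chr10:62920383-62920682, plus strand: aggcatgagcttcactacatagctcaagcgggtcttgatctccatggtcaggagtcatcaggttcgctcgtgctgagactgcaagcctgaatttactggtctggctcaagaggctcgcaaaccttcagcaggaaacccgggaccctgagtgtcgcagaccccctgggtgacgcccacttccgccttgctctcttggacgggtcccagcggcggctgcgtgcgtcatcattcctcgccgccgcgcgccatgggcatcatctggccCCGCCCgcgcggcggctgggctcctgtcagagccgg
Slc25a1, rose, chr16:17928170-17928469, minus strand: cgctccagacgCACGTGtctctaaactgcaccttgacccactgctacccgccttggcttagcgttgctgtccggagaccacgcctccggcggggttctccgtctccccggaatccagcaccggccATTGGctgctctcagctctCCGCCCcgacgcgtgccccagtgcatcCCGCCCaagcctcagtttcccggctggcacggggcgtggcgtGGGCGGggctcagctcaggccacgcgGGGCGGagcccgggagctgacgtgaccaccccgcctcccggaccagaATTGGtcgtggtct
The E box occurred once in the Slc25a13 window and once in the Slc25a1 window, so it stood in a gene that fell and in one that rose. It was absent from the windows of Slc25a16, Slc25a22, which rose, and Slc25a53, which fell. Windows of Slc25a14, Slc25a15, Slc25a31, Slc25a33 and Slc25a36, which did not pass, also held it. Slc25a1 held 2 CCAAT boxes and 4 GC boxes, Slc25a13 held 1 CCAAT box and 0 GC boxes, and Slc25a16 held 1 GC box and neither of the others. Of the 43 carrier windows, some genes having several, 18.6% held the E box, against 7.15% of all 32851 windows and 7.84% of those of protein-coding genes. The CCAAT box was in 48.8% of carrier windows, against 37.4% of all windows and 38.2% of protein-coding ones. The GC box was in 86% of carrier windows, against 35.7% of all windows and 46.2% of protein-coding ones. Another motif searched, not capitalised here, that of the mitochondrial gene regulator NRF1, occurred in 4.65% of carrier windows (2, those of Slc25a3 and Slc25a31), against 4.6% of all windows and 6.38% of protein-coding ones. A motif match describes these letters and not binding, and the motifs were chosen after the expression values were known.

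Among the carriers of nucleotides and vitamin cofactors, Slc25a26 showed the largest difference of the 44 genes. It imports S-adenosylmethionine, the methyl donor for mitochondrial RNA and protein methylation, in exchange for S-adenosylhomocysteine. Its signal was 13.39, 13.56, 13.46 and 13.42 on the knockout arrays, against 11.77, 11.27, 11.45 and 11.10 on the wild-type arrays. Knockout values lay within a narrow band well above every wild-type value. The difference was 2.06 ± 0.131 (SE), or 4.18-fold (adjusted p = 1.62e-05, limma). A second probe set read 10.85, 10.96, 10.74 and 10.75 in knockout against 9.14, 8.51, 8.64 and 8.82 in wild type, again with no overlap, a difference of 2.05 ± 0.13 (adjusted p = 1.62e-05, limma). The 2 probe sets thus gave nearly the same difference at different brightness. In both probe sets wild-type array 1 stood above its group, and without it the difference of the brighter probe set was 2.19.

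Slc25a32, which carries folate and the flavin cofactor FAD into mitochondria, fell. It read 10.73, 10.82, 10.66 and 10.90 in knockout against 11.06, 11.20, 11.02 and 11.11 in wild type, with no overlap. The difference was -0.32 ± 0.0785 (SE, adjusted p = 0.021, limma), or 1.25-fold lower, and a second probe set gave -0.45 ± 0.117 (adjusted p = 0.0284, limma). The third and dimmest Slc25a32 probe set read 4.35 in knockout and 4.14 in wild type and did not pass (adjusted p = 0.238, limma).

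Slc25a51, the carrier that brings NAD into mitochondria, gave different answers by probe set. The brightest read 11.18, 11.12, 10.92 and 11.27 in knockout against 10.98, 11.13, 10.98 and 11.19 in wild type, overlapping throughout, with a difference of 0.05 (95% interval -0.15 to 0.26, adjusted p = 0.759, limma). A dimmer one read 9.05, 8.58, 8.64 and 8.96 in knockout against 7.81, 7.30, 7.42 and 7.41 in wild type, a rise of 1.32 ± 0.141 (SE) or 2.50-fold (adjusted p = 0.000273, limma). The third lay near 5.09 in knockout and 5.08 in wild type. The rise of Slc25a51 therefore rests on 1 of 3 probe sets. The pyrimidine nucleotide carriers Slc25a33 and Slc25a36 did not pass, with differences of -0.15 and 0.23.

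Slc25a13 showed the largest fall. It encodes citrin, a calcium-activated exchanger of aspartate for glutamate and a part of the malate-aspartate shuttle, which moves reducing equivalents from cytosolic NADH into mitochondria. Its single probe set read 8.08, 8.98, 8.96 and 8.14 in knockout against 9.74, 10.43, 10.20 and 10.33 in wild type. All knockout values were below all wild-type values, and the knockout arrays fell into a lower pair (arrays 1 and 4) and a higher pair (arrays 2 and 3). The difference was -1.63 ± 0.238 (SE), or 3.10-fold lower in knockout (adjusted p = 0.0015, limma). Slc25a12, or aralar, the paralogue with the same exchange, read 9.29 ± 0.135 in knockout and 9.11 ± 0.154 in wild type (SD, n = 4 each) and did not pass (adjusted p = 0.269, limma). One of its 2 dimmer probe sets rose by 0.27 ± 0.0743 (SE, adjusted p = 0.0345, limma), and all 3 had positive differences.

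Slc25a22, which imports glutamate together with a proton, rose. It read 10.11, 10.23, 10.04 and 10.09 in knockout against 9.68, 9.84, 9.77 and 9.96 in wild type, with no overlap, a difference of 0.30 ± 0.0815 (SE) or 1.24-fold (adjusted p = 0.0313, limma). The related glutamate carrier Slc25a18 read 5.49 in knockout and 5.54 in wild type and did not pass. In the aspartate and glutamate group, 1 gene thus rose, 1 fell and 2 did not pass.

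Of 5 carriers of citrate, dicarboxylates and oxoglutarate, 1 rose and 1 fell. Slc25a35, whose substrate is not settled and which resembles the oxaloacetate carrier of yeast, read 9.93, 9.98, 10.06 and 10.03 in knockout against 10.46, 10.61, 10.59 and 10.65 in wild type. Both groups were tight and clearly separate, and the difference was -0.58 ± 0.0712 (SE), or 1.49-fold lower in knockout (adjusted p = 0.000589, limma). Slc25a1, the citrate carrier that supplies acetyl units for cytosolic fatty acid and sterol synthesis, rose by 0.29 ± 0.0872 (SE, 1.23-fold, adjusted p = 0.0479, limma). It read 11.38, 11.41, 11.26 and 11.23 in knockout against 10.98, 10.94, 10.97 and 11.23 in wild type, so that wild-type array 4 nearly reached the lowest knockout array. The dicarboxylate carrier Slc25a10, the oxoglutarate carrier Slc25a11 and Slc25a34 did not pass, with differences between -0.02 and 0.28.

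The ADP/ATP carriers did not pass. Slc25a4, the form of heart and muscle, read 11.34, 11.27, 11.24 and 11.52 in knockout against 11.31, 11.15, 11.06 and 10.91 in wild type, overlapping, with a difference of 0.23 ± 0.103 (SE, adjusted p = 0.17, limma). Slc25a5, the form of dividing cells, read 12.48, 12.38, 12.33 and 12.42 in knockout against 12.44, 12.30, 12.41 and 12.26 in wild type, a difference of 0.05 (95% interval -0.11 to 0.22). None of its 8 probe sets passed. Slc25a31, the germ cell form known from male meiosis, read 11.66, 11.73, 11.82 and 11.70 in knockout against 11.63, 11.74, 11.64 and 11.47 in wild type, a difference of 0.11 (95% interval -0.07 to 0.29). For all 3 genes the groups overlapped, and the intervals bound a change to under 0.5 in either direction in their brightest probe sets. Slc25a3, the phosphate carrier that feeds ATP synthesis, read 12.03 ± 0.118 in knockout and 12.18 ± 0.12 in wild type (SD, n = 4 each), a difference of -0.15 (95% interval -0.35 to 0.05).

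In the same group, Slc25a16, linked to mitochondrial coenzyme A by its relative in yeast, fell. It read 9.27, 9.44, 9.65 and 9.47 in knockout against 9.94, 10.06, 9.83 and 9.70 in wild type, with no overlap, though the highest knockout and the lowest wild-type array were closer together than the SD of either group. The difference was -0.42 ± 0.105 (SE), or 1.34-fold lower in knockout (adjusted p = 0.022, limma). Slc25a42, which carries coenzyme A and adenine nucleotides, and the peroxisomal Slc25a17 differed by 0.03 and -0.11 and did not pass. All 4 genes grouped here as ATP-Mg/phosphate carriers, which set the size of the matrix adenine nucleotide pool, did not pass, with positive differences between 0.04 and 0.39. The highest, Slc25a24, read 7.09, 6.75, 7.27 and 6.90 in knockout against 6.83, 6.67, 7.06 and 5.90 in wild type, where wild-type array 4 stood below the others.

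**Figure D2:**
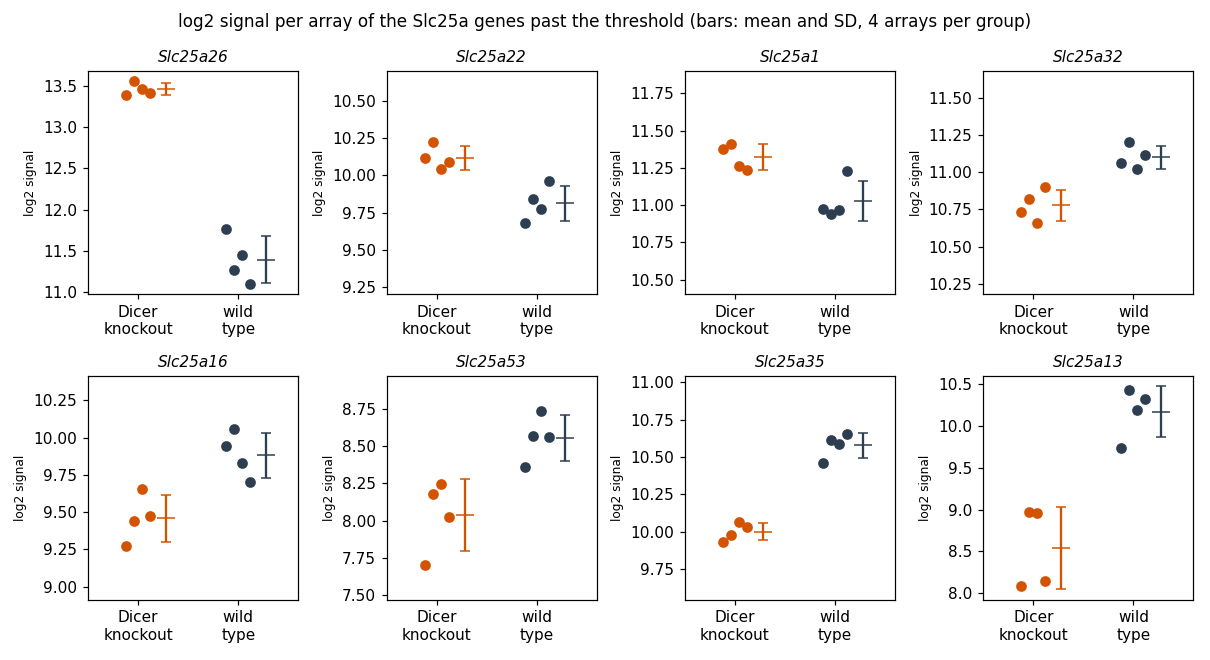
Each panel gives the log2 signal of 1 carrier past the threshold on each array, knockout (orange, left) and wild type (dark, right), with the mean and SD of 4 arrays; the y axes differ between panels. The groups of Slc25a26, Slc25a13 and Slc25a35 are far apart, and those of Slc25a1 nearly meet at 11.23.

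Of the 9 carriers of other amino acids and carnitine, 0 passed in limma. An unadjusted p under 0.05, for which the share of all genes was not counted, was found for 3 (Slc25a2, Slc25a45 and Slc25a48). Slc25a48, linked to mitochondrial choline import, was the one with the lowest p, and its probe sets disagreed. The brightest read 12.03, 12.06, 11.78 and 11.70 in knockout against 11.52, 11.23, 11.60 and 11.66 in wild type, a difference of 0.39 ± 0.119 (SE, adjusted p = 0.0552, limma) without overlap. The second read 11.22, 11.04, 11.13 and 11.09 in knockout against 10.32, 10.09, 10.39 and 10.32 in wild type and rose by 0.84 ± 0.0842 (SE, adjusted p = 0.000187, limma). The third read 8.09, 8.24, 7.81 and 7.93 in knockout against 8.56, 8.42, 8.63 and 8.79 in wild type and fell by 0.59 ± 0.113 (SE, adjusted p = 0.00672, limma). No other carrier had probe sets passing in opposite directions. The ornithine carriers Slc25a15 and Slc25a2, the carnitine carrier Slc25a20, the basic amino acid carrier Slc25a29, the glycine carrier Slc25a38, the branched-chain carrier Slc25a44 and the less studied Slc25a45 and Slc25a47 differed by -0.19 to 0.31.

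Among relatives of the uncoupling proteins, Slc25a30, first described in kidney, varied most between arrays of one group. Its brightest probe set read 9.40, 8.35, 9.28 and 8.77 in knockout against 9.20, 8.13, 8.20 and 7.87 in wild type, overlapping (difference 0.60, 95% interval -0.09 to 1.29, adjusted p = 0.24, limma). Another, which read 8.12, 7.11, 7.90 and 7.67 in knockout against 8.07, 6.86, 7.07 and 6.81 in wild type, was high and low on the same arrays, with knockout arrays 1 and 3 and wild-type array 1 on top. The 2 probe sets that passed did not show that scatter. One read 9.13, 9.07, 8.87 and 8.51 in knockout against 8.40, 8.24, 8.44 and 8.24 in wild type (difference 0.57 ± 0.133 SE, adjusted p = 0.0179, limma). The other read 6.85, 6.91, 6.88 and 6.70 in knockout against 6.44, 6.45, 6.42 and 6.33 in wild type (difference 0.42 ± 0.0724 SE, adjusted p = 0.00363, limma). Without wild-type array 1 the brightest probe set passed too, with a difference of 0.88 (adjusted p = 0.0407, limma). Slc25a14 and Slc25a27 differed by -0.09 and 0.12 and did not pass.

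The iron and glutathione carriers did not pass in their brightest probe sets. Slc25a28, mitoferrin 2, which brings iron into mitochondria, read 9.27, 9.27, 9.15 and 9.19 in knockout against 9.44, 9.35, 9.38 and 9.46 in wild type, without overlap (difference -0.19 ± 0.0668 SE, adjusted p = 0.0869, limma). Slc25a37, mitoferrin 1, the form of red blood cell precursors, read 4.33 in knockout and 4.34 in wild type. Slc25a39, which imports glutathione, read 12.47, 12.22, 12.21 and 12.35 in knockout against 12.18, 11.86, 12.21 and 11.93 in wild type (difference 0.27 ± 0.103 SE, adjusted p = 0.116, limma). One of its 4 other probe sets rose by 0.28 ± 0.0681 (SE, adjusted p = 0.0213, limma), and 4 of its 5 had positive differences. Its paralogue Slc25a40 had the opposite sign, -0.43 ± 0.155 (SE, adjusted p = 0.0916, limma), and did not pass.

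Of the remaining 3 genes, Slc25a53, a carrier of unknown substrate, fell. It read 7.71, 8.18, 8.24 and 8.03 in knockout against 8.36, 8.57, 8.74 and 8.56 in wild type, a difference of -0.52 ± 0.127 (SE), or 1.43-fold lower in knockout (adjusted p = 0.0215, limma). Its dim second probe set read 3.95 in knockout and 3.90 in wild type. Slc25a46, an outer membrane protein of mitochondrial fission and cristae, and Slc25a54 did not pass, with differences of 0.23 and 0.04.

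**Figure D3:**
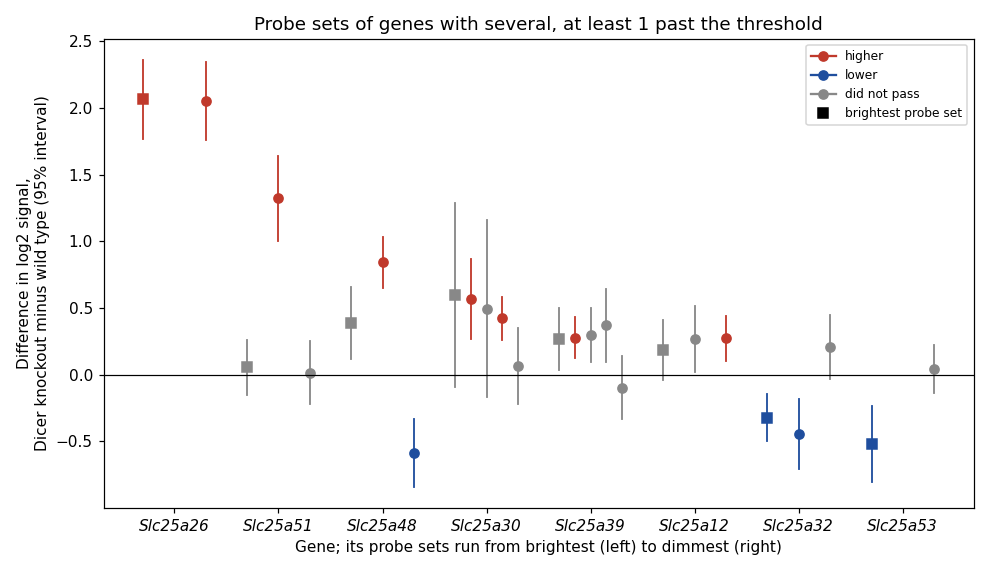
The y axis gives the difference in log2 signal, Dicer knockout minus wild type, with its 95% interval for every probe set of 8 carriers with several probe sets, from brightest (square) to dimmest. Both Slc25a26 probe sets lie near 2, while the probe sets of Slc25a51 and Slc25a48 spread over more than 1 log2.

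Probe sets of one gene differed in many carriers. Of the 93 carrier probe sets, 17 passed (18.3%), against 16.1% of all probe sets. Of 23 carriers with several probe sets, all differences had the same sign in 12, and in 7 some but not all probe sets passed. In 5 carriers (Slc25a12, Slc25a30, Slc25a39, Slc25a48 and Slc25a51) another probe set passed while the brightest did not. Slc25a26, Slc25a32 and Slc25a53 are the called carriers with more than 1 probe set, and 2 of these 3 had a second one that passed in the same direction. The other 5 called carriers were measured by 1 probe set each. Both Slc25a26 probe sets carry a suffix by which the platform marks probes shared between transcripts, as do most of Slc25a5. Without such probe sets 40 carriers were measured, Slc25a26 not among them, and 2 were higher and 5 lower in knockout.

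Calls of the smaller differences rested on all arrays together. Slc25a26, Slc25a13 and Slc25a35 passed whichever array was left out, with differences of 1.96 to 2.19, -1.78 to -1.48 and -0.62 to -0.55. The call of Slc25a1 ended without any array other than wild-type array 4 (adjusted p = 0.0633 to 0.12, limma). That of Slc25a22 ended without knockout arrays 1, 2 or 4 or wild-type arrays 1, 2 or 3 (0.0615 to 0.0798). That of Slc25a16 ended without knockout arrays 1, 2 or 4 or wild-type arrays 1 or 2 (adjusted p up to 0.0612). That of Slc25a32 ended without knockout arrays 1 or 3 or wild-type arrays 2 or 4 (0.0531 to 0.0612), and that of Slc25a53 without knockout array 4 or wild-type arrays 2, 3 or 4 (0.0517 to 0.0558). In all these fits the directions stayed as given, which was fixed in advance because the groups of these 8 carriers did not overlap.

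The machinery that carriers depend on was described beside them. Of 13 genes of carrier import, which brings carriers from the TOM70 receptor through small TIM chaperones to TIM22, 1 rose and 1 fell (median 0.03). Over all genes, 8.18% rose and 12.8% fell. Agk, a subunit of TIM22 that is also a lipid kinase, read 11.77, 11.53, 11.41 and 11.67 in knockout against 10.87, 10.77, 10.71 and 10.83 in wild type. The groups were far apart, with a difference of 0.80 ± 0.0908 (SE, 1.74-fold, adjusted p = 0.00038, limma), and 2 of its 3 probe sets passed. Timm8b, a small TIM chaperone, read 9.20, 9.27, 9.35 and 9.40 in knockout against 10.37, 10.16, 10.25 and 10.20 in wild type, a difference of -0.94 ± 0.0775 (SE), or 1.92-fold lower (adjusted p = 6.68e-05, limma). Timm22, the pore of the complex, read 7.41 in knockout and 7.49 in wild type and did not pass.

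The 3 outer membrane channels Vdac1, Vdac2 and Vdac3, through which metabolites reach the carriers, differed by 0.23, -0.39 and -0.13 and did not pass. Of 10 further carriers, uncoupling proteins and outer membrane relatives, 1 rose and 2 fell (median -0.05), where 8.18% of all genes rose and 12.8% fell. Mtch1, an outer membrane relative of the carriers, read 8.88, 8.96, 8.69 and 8.73 in knockout against 9.23, 9.01, 9.54 and 9.68 in wild type, a difference of -0.55 ± 0.143 (SE, adjusted p = 0.028, limma). Sfxn1, the mitochondrial serine transporter, fell by 0.34 ± 0.0884 (SE, adjusted p = 0.0288, limma) in 1 of its 2 probe sets, with 7.08 in knockout and 7.42 in wild type. Ucp1, the uncoupling protein of brown fat, rose by 0.34 ± 0.0839 (SE, adjusted p = 0.0217, limma) at a dim signal of 4.69 in knockout and 4.35 in wild type. Mpc1, a subunit of the mitochondrial pyruvate carrier, read 9.16 in knockout and 9.44 in wild type and did not pass (adjusted p = 0.0552, limma).

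**Figure D4:**
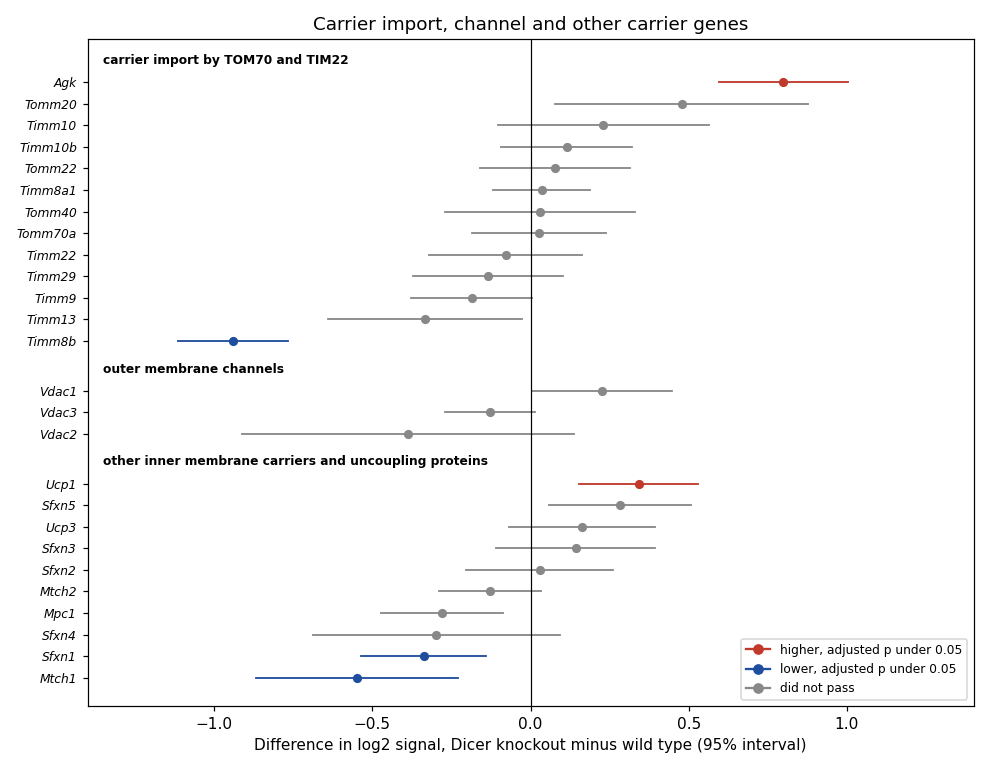
The x axis gives the difference in log2 signal, Dicer knockout minus wild type, with its 95% interval for genes of carrier import, outer membrane channels and other carriers (n = 4 arrays per group). Agk at 0.80 and Timm8b at -0.94 lie farthest from 0.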

How the data were processed

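Levels were measured on 8 Affymetrix arrays, 1 per mouse. RNA was amplified in 2 rounds, per the labels' protocols, which favours transcript 3′ ends. The authors deposited log2 signals for each probe set. The submitters' processing notes name RMA and Partek, without versions. Low signals are compressed by RMA, which understates folds of dim genes. The number of arrays limits the precision.

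Of 45101 probe sets, 64 controls were left out. Probe sets with 1 gene symbol (34945) gave 18193 genes, each by its brightest probe set over 8 arrays, and 34741 of these probe sets matched the RefSeq gene table. limma 3.58.1 (R 4.3.3, lmFit and eBayes, knockout minus wild type, no covariates) was fitted to all 45037 probe sets, with Benjamini-Hochberg adjustment over all. Adjusted p under 0.05 counted as passing. The fit was also run on simulated data, and the outcome is not reported here. Folds were taken from the log2 differences. Carriers named with values passed in some probe set, belong to the ADP/ATP trio or had the lowest p in their role; members of related lists were named if they passed, and others are given to complete a count, chosen after their values were seen. Protein sequences were not used here. Alternatives were a dim filter, 3 scalings, trend and robust variances, array weights, title numbers as blocks, other probe set choices, adjustment over genes alone and leaving out each array. The carriers and lists were chosen with earlier results of these data known.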

Additional observations from a re-analysis of the deposited data

Results flagged for a closer look

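In each group of 4 arrays, a single array far from the other 3 was looked for in the brightest probe set of every carrier, as a gap to its closest neighbour that is large within the group's range. This was found in 3 of 88 sets of values, where chance flags about 4.4. Slc25a36, the pyrimidine nucleotide carrier, read 9.80 on knockout array 2 and 10.69 to 10.76 on the other knockout arrays. Slc25a1, the citrate carrier, read 11.23 on wild-type array 4 and 10.94 to 10.98 on its 3 fellows, and without that array its difference was 0.36. Slc25a29, the basic amino acid carrier, read 8.01 on wild-type array 3 and 7.79 to 7.82 on the others.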

How the results depend on the processing

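With all arrays 3 carriers were higher and 5 lower. Quantile normalisation gave 3 lower, subtracting array medians 1 higher, cyclic loess 6 higher and 2 lower, and averaging all probe sets per gene 6 higher; the cause was not tested. Leaving out single arrays gave 1 to 3 higher and 2 to 4 lower, with fewer samples in the fit. The median difference kept its sign in every alternative (0.01 to 0.07), and no called carrier changed direction. Slc25a26 kept its call in each of the 18 alternatives that measured it, and Slc25a13 and Slc25a35 in 18 of 19. The first number of the title code is shared across the groups by 2 pairs of mice, and within wild type by arrays 3 and 4. The labels do not say that it marks a batch, and deviations within the cross-group pairs correlated at -0.28 and 0.12 across probe sets. These 2 pairs cannot show whether the number marks a batch, and the number was not taken as a pairing in the main fit. As a fixed replicate block it left 1 carrier higher (Slc25a26) and 0 lower, and 523 genes higher and 692 lower of all genes in place of 1488 and 2330, with fewer degrees of freedom. At an unadjusted p under 0.05, that fit gave 6 carriers higher and 6 lower. The share of all genes at that threshold was not counted, so these counts have no background. As a random replicate block it left 2 higher and 5 lower. In both cross-group pairs, each of the 8 called carriers differed in the direction given. Their groups did not overlap, so no other outcome was possible. Of the 44 carriers, 38 had a mean above the median of all probe sets, and dim members are limited by background signal.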
